A study of Mus musculus with 13 samples.

Results

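The steroid hormone synthesis genes are 10 named genes of the 53465 in the table: Scarb1, Star, Fdx1, Cyp11a1, Hsd3b1, Cyp17a1, Cyp19a1, Hsd17b1, Hsd17b7 and Akr1c18. They were chosen by symbol for their place in ovarian steroid synthesis. The rule used no measured value, but it was set with earlier results of these data known, and each symbol matched 1 gene. RNA-seq of bulk tissue compared 3 WT mouse ovaries with 10 MP EPO-GEMM tumors, both untreated and from female C57BL/6 mice. The tumors arose after the left ovary was injected and electroporated at 8 to 12 wk of age. The mix held 1 vector for Cas9 plus an sgRNA against Trp53, a transposon vector for MYC overexpression and a Sleeping Beauty transposase. The WT ovaries carried none of these. Their labels repeat the same age range and surgical protocol, and the age of either group at collection was not given in the sources used here. Electroporation reached ovarian and fallopian tube tissue alike, and the cycle stage of the WT mice was not given in the sources used here. A WT ovary holds granulosa, theca, luteal and egg cells together, so fewer cells of a type and less RNA per cell cannot be told apart in any comparison below.

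Steroid hormones are made from cholesterol. A scavenger receptor, Scarb1, takes cholesterol esters up from lipoproteins, and Star carries cholesterol to the inner mitochondrial membrane, where Cyp11a1 cuts its side chain with electrons delivered by the ferredoxin Fdx1. Hsd3b1 turns the resulting pregnenolone into progesterone, Cyp17a1 leads to androgens in theca cells, Cyp19a1 (aromatase) turns androgens into estrogens in granulosa cells, and Hsd17b1 and Hsd17b7 make the more active estrogen. Akr1c18 inactivates progesterone in the aging corpus luteum.

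The libraries differed in depth, from 31445004 to 64013840 reads per WT ovary and from 3892690 to 19906507 reads per MP tumor. Trp53, the edited gene, stood between 80.7 and 85.4 TPM (transcript abundance scaled to the same total in each library) in the WT ovaries and between 4.30 and 26.0 TPM in MP tumors 1 to 9, but the library labelled MP tumor 10 held 187 TPM. Myc stood between 126 and 129 TPM in the WT ovaries and between 7.09 and 298 TPM in MP tumors 1 to 9. It was highest in the library labelled MP tumor 10, at 419 TPM. Whether that label is right was not tested, and it was kept. The 10 most abundant genes took 55.1% of all TPM in MP tumor 2 and between 7.92% and 20.6% in the other tumors. The WT ovaries and MP tumors 1 to 3 share 1 library code in their sample names, whereas MP tumors 4 to 6 and 7 to 10 carry 2 other codes, under which there is no WT ovary.

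RefSeq start sites on GRCm38.p6 were at hand for 6 of the 10 genes. The 150 bases before a start are shown for 4 of them, because Hsd3b1 and Akr1c18 were among the members that lost most, Fdx1 kept more and Cyp19a1 was at or near 0 in the tumors. Capitals mark matches, on either strand, to the motifs searched. These were the nuclear receptor half-site AGGTCA, the GATA site written AGATAA, the other spelling of that site with TGATAA in its place, and the TATA box, spelled TATAAA. Each sequence runs 5′ to 3′ on the strand of its gene.
Hsd3b1 (chr3:98859795-98859944, minus strand): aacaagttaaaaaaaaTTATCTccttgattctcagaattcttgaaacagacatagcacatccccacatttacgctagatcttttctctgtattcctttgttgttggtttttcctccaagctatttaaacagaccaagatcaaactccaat
Akr1c18 (chr13:4150647-4150796, minus strand): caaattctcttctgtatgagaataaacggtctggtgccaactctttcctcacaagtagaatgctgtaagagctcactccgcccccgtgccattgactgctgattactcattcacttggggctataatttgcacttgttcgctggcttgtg
Cyp19a1, the second of 3 start sites (chr9:54228915-54229064, minus strand): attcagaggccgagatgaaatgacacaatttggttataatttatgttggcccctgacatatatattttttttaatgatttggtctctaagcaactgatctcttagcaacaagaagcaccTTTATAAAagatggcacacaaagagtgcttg
Fdx1 (chr9:51963603-51963752, minus strand): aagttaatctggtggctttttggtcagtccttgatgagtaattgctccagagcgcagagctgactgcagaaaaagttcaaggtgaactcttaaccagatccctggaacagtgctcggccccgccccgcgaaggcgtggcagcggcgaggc

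The Hsd3b1 window held a GATA match on the opposite strand, 134 to 129 bases before the start. The Cyp19a1 window held 2 overlapping TATA matches, 1 on each strand, between 31 and 24 bases before the start. The Akr1c18 and Fdx1 windows held none of these letters. Of the windows not shown, those of Cyp11a1 do not sit at the start of the gene as counted. Its first RefSeq start lies 8387 bases before the gene, and its window held no match. The second lies 8541 bases inside the gene, and its window, which is annotated exon throughout, held the half-site 28 to 23 bases before the start. The first Cyp19a1 start had the half-site on the opposite strand 81 to 76 bases before it, and the third Cyp19a1 start had a TATA match on the opposite strand 143 to 138 bases before it. Over all 32851 RefSeq promoter windows of this length, 8.58% held the half-site, 9.65% either GATA site and 7.57% the TATA box, so the matches are descriptions of these windows only.

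In the WT ovaries the 10 genes together took between 2.94% and 3.36% of all TPM. In the MP tumors they took between 0.00533% in MP tumor 2 and 0.105% in the library labelled MP tumor 10. Of the 10 genes, 8 fell in MP tumors (limma on log2(TPM + 1), Benjamini-Hochberg adjusted over the 17277 genes tested, threshold 0.05) and 0 rose. All 10 passed the filter on low values, but Cyp19a1, counted among the 8, did so through the WT ovaries only. In the same comparison 14.3% of all genes tested were lower and 2.51% were higher (2463 and 433 genes). Within the libraries that share the WT ovaries' code, 57.3% of all genes tested and all 10 members were lower. Without WT ovary 1, 1158 genes and 8 members were lower. With median-of-ratios scaling the split over all genes was 1888 lower and 1291 higher, and 8 members again fell. The count was also 8 without MP tumor 2 and without the library labelled MP tumor 10. Among genes with a mean of at least 100 TPM in WT ovary, a level that 9 of the 10 members also had, 19% were lower. The same 8 genes stood below every WT ovary in all 10 tumors, a separation seen in 16.4% of genes tested. The median log2 fold change was -4.71 over the members and -0.58 over all genes tested.

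**Figure D1:**
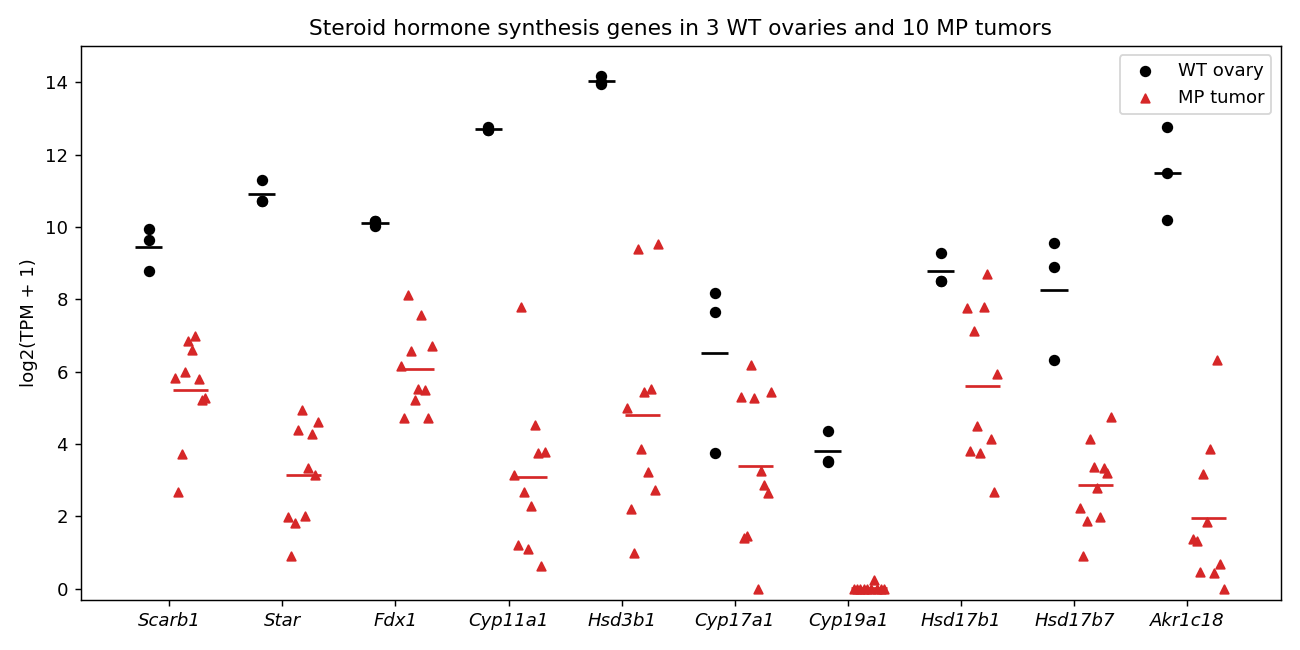
Expression of each member as log2(TPM + 1) on the vertical axis, with black circles for the 3 WT ovaries, red triangles for MP tumors 1 to 10 from left to right, and bars at the group means. For 8 genes every triangle lies below every circle, while Cyp17a1 and Hsd17b1 overlap.

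Scarb1, the cholesterol ester receptor (chr5:125277087-125341094, minus strand), stood at 982, 793 and 442 TPM in WT ovaries 1 to 3. Over the MP tumors it ran from 5.42 TPM in MP tumor 2 to 126 TPM in MP tumor 7, with a median of 55.0. Every tumor was below every ovary, and the highest tumor was at 28.4% of the lowest ovary. Scarb1 fell by 3.96 on the log2 scale (SE 0.75, limma adjusted p = 0.00199), and the value was -3.25 with median-of-ratios scaling. Within the libraries that share the WT ovaries' code it was -5.38, where 57.3% of all genes tested were lower.

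Star, which brings cholesterol to the enzyme that cuts it (chr8:25806555-25815982, plus strand), stood at 2506, 1684 and 1688 TPM in the WT ovaries. In the MP tumors its lowest value was 0.875 TPM, its median 8.45 and its highest 30.0, in MP tumor 5. The lowest WT ovary was 56.2 times the highest tumor, so the groups were far apart. Star fell by 7.77 (SE 0.76, limma adjusted p = 3.89e-06). MP tumors 1 to 3, which share the library code of the WT ovaries, held 0.875 to 2.94 TPM, and the other 7 tumors held 3.02 to 30.0 TPM. With MP tumors 1 to 3 alone the log2 fold change of Star was -9.34, where 57.3% of all genes tested were lower.

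Cyp11a1, the side-chain cleavage enzyme that commits cholesterol to steroids (chr9:58006411-58027023, plus strand), had closely similar levels in the WT ovaries, at 6487, 6958 and 6539 TPM. Over the MP tumors it ran from 0.548 TPM in MP tumor 9 to 221 TPM in MP tumor 3, with a median of 6.59. MP tumor 3 stood alone, since the second highest, MP tumor 7, held 21.9 TPM. Cyp11a1 fell by 9.61 (SE 1.09, limma adjusted p = 1.80e-05), the largest fall of the 17277 genes tested at a pseudocount of 1. The order of Cyp11a1, Akr1c18 and Hsd3b1 depended on the setting, since Akr1c18 fell more with a pseudocount of 0.1 (-10.48 against -9.98 for Cyp11a1) and Hsd3b1 fell more within the libraries that share the WT ovaries' code (-11.32 against -8.65 for Cyp11a1). It shares 145 exon bases on the same strand with the lincRNA Gm17322, whose mean was 9.74 TPM in WT ovaries and 3.98 TPM in tumors.

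Fdx1, the electron carrier of Cyp11a1 (chr9:51943306-51963556, minus strand), stood at 1142, 1137 and 1032 TPM in the WT ovaries. It ran from 25.1 TPM in MP tumor 9 to 275 TPM in MP tumor 3 (median 57.8), so its extremes lay in the same tumors as those of Cyp11a1. Fdx1 fell by 4.03 (SE 0.63, limma adjusted p = 0.000401), and its median in tumors was 5.24% of the WT mean against 0.0990% for Cyp11a1. Fdxr, the reductase that feeds Fdx1, was at -2.07 on the log2 scale (SE 0.74, limma adjusted p = 0.0646) and did not pass the test.

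Hsd3b1, the progesterone-forming enzyme (chr3:98852194-98859794, minus strand), was the second most abundant of the genes tested in WT ovary by mean TPM, with 15793, 18337 and 16540 TPM. Its lowest value in MP tumors was 0.984 TPM, in MP tumor 3, and its median was 22.2 TPM. The tumors were uneven, since MP tumor 4 held 665 TPM and the library labelled MP tumor 10 held 740 TPM while the other 8 held at most 45.2 TPM. Hsd3b1 fell by 9.25 (SE 1.46, limma adjusted p = 0.000450). It belongs to a family of near-identical genes, so its reads are uncertain where the counting could split them. Its relative Hsd3b6 had a mean of 3.98 TPM in WT ovary, and Hsd3b3 was listed at 0 throughout.

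Cyp17a1, the androgen-forming enzyme of theca cells (chr19:46667165-46672974, minus strand), varied most among the WT ovaries, at 200, 286.4 and 12.6 TPM. In MP tumors it ran from 0 in MP tumor 6, where 3 reads would have given 0.492 TPM, to 71.9 TPM in MP tumor 4 (median 7.45). The groups overlapped, because 4 tumors stood above WT ovary 3. The log2 fold change was -3.14 (SE 1.24, limma adjusted p = 0.0924), which did not pass the test. Among the 6 libraries that share the WT ovaries' code it was -3.80 (limma adjusted p = 0.0471), where 57.3% of all genes tested were lower, and it did not pass with the code as a covariate (limma adjusted p = 0.0521). Single ovaries moved the value, from -2.32 without WT ovary 2 to -4.53 without WT ovary 3 (limma adjusted p = 0.0581), and neither passed.

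Cyp19a1, aromatase (chr9:54165937-54268110, minus strand), was low in WT ovary, at 10.4, 19.6 and 10.6 TPM, which rested on 701 to 932 reads. It had no read in 9 tumors and 2 reads in MP tumor 7, or 0.183 TPM (exact Poisson 95% interval 0.0221 to 0.659 TPM, counting error only). A count of 0 allows up to 3 reads, equal to between 0.0757 and 0.524 TPM in those 9 tumors and to between 0.559% and 3.87% of the WT mean. Cyp19a1 fell by 3.78 (SE 0.24, limma adjusted p = 4.14e-08). It reached the 1 TPM of the filter only in the WT ovaries, so it entered the test only through the group where it is high. With no filter the value was also -3.78 (limma adjusted p = 7.30e-08). At so low a WT level the pseudocount of 1 limits how far this value can go, so it is not comparable with the falls of abundant members. The log2 fold change was -6.88 with a pseudocount of 0.1 and -7.94 with voom on the reads worked back.

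Hsd17b1, a granulosa cell enzyme that makes estradiol (chr11:101078411-101080527, plus strand), stood at 364, 625.1 and 364 TPM in the WT ovaries. It ran from 5.34 TPM in MP tumor 9 to 416 TPM in MP tumor 7, with 220 TPM in MP tumor 6, 215 in MP tumor 1 and a median of 40.7. Only MP tumor 7 reached the range of the WT ovaries. The log2 fold change was -3.16 (SE 1.10, limma adjusted p = 0.0609), which did not pass the test. It passed without MP tumor 7 (-3.50, limma adjusted p = 0.0317), without MP tumor 6 (-3.40, limma adjusted p = 0.0499), and within the libraries that share the WT ovaries' code (-2.55, limma adjusted p = 0.0498), where 57.3% of all genes tested were lower. The same value of -2.55 did not pass with the code as a covariate (limma adjusted p = 0.136).

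Hsd17b7, which acts in both estradiol and cholesterol synthesis (chr1:169949535-169969241, minus strand), stood at 749, 477 and 79.5 TPM in the WT ovaries. The tumors ran from 0.882 TPM in MP tumor 2 to 25.7 TPM in the library labelled MP tumor 10, with a median of 7.09. No tumor reached the lowest ovary, although WT ovary 3 was far below the others. Hsd17b7 fell by 5.40 (SE 0.76, limma adjusted p = 0.000155), and the value was -6.37 without WT ovary 3. Within the libraries that share the WT ovaries' code it was -6.59, where 57.3% of all genes tested were lower.

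Akr1c18, which inactivates progesterone (chr13:4132615-4150654, minus strand), differed widely among the WT ovaries, at 1175, 2849 and 6896 TPM. In MP tumors it ran from 0 in the library labelled MP tumor 10, where 3 reads would have given 1.598 TPM, to 79.6 TPM in MP tumor 8 (median 1.55). MP tumor 8 stood apart, since MP tumor 6 came next with 13.5 TPM. Akr1c18 fell by 9.52 (SE 1.08, limma adjusted p = 1.85e-05). The value was -10.16 without WT ovary 1 and -8.89 without WT ovary 3. Within the libraries that share the WT ovaries' code it was -10.42, where 57.3% of all genes tested were lower.

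**Figure D2:**
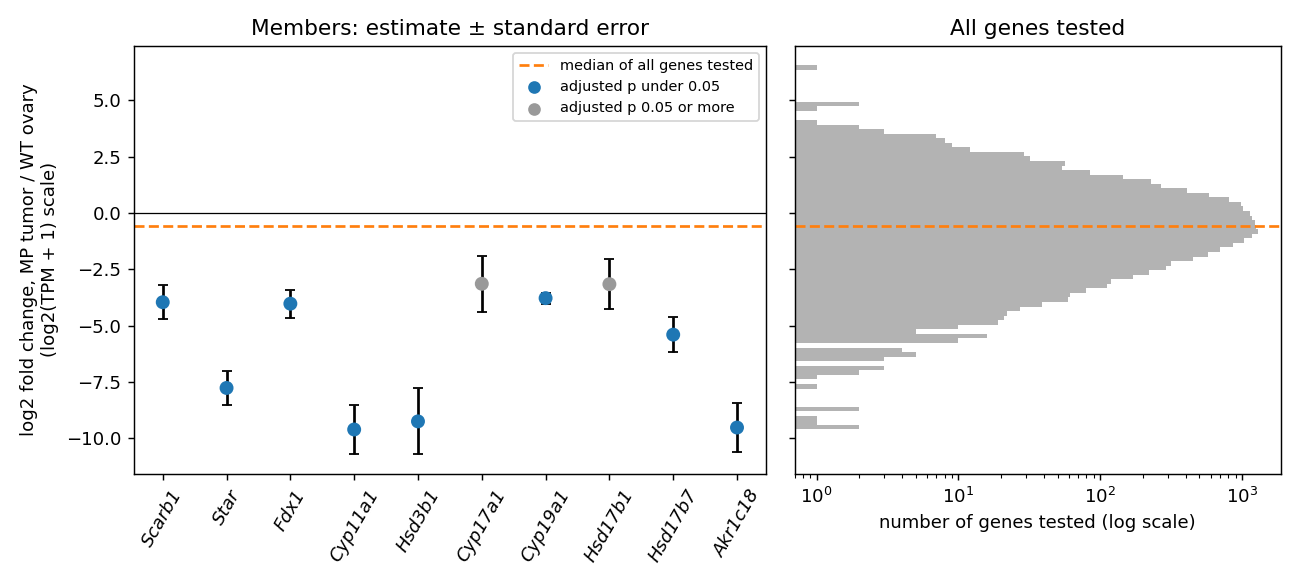
Left, the limma log2 fold change of MP tumor over WT ovary for each member, with bars of 1 standard error, blue where the adjusted p was under 0.05 and grey otherwise. Right, the number of genes tested at each fold change on a log axis. The dashed line is the median of all genes (-0.58), and the members lie between -3.14 and -9.61.

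The WT ovaries were not uniform. WT ovary 3 had the most Akr1c18 of the ovaries and the least Cyp17a1, Hsd17b7 and Scarb1. The highest ovary was 22.8 times the lowest for Cyp17a1, 9.41 times for Hsd17b7 and 5.87 times for Akr1c18. By contrast Cyp11a1, Fdx1 and Hsd3b1 varied little, with a coefficient of variation of 3.87%, 5.63% and 7.74% (n = 3 each).

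The amounts that remained in the tumors also differed between genes. Of the 100 values (10 genes in 10 tumors), 49 were under 1% of the WT mean and 14 were over 10% of it, and those 14 belonged to Hsd17b1, Cyp17a1, Scarb1 and Fdx1. The 49 include the 9 values of 0 for Cyp19a1. In MP tumors 4, 5, 6, 9 and 10 such a 0 allows up to 1.74% to 3.87%, so these are not shown to be under 1%. Which gene was highest changed from tumor to tumor. Hsd17b1 led in MP tumors 1, 6 and 7, Fdx1 in 2 and 3, Scarb1 in 5 and 9, and Akr1c18 in 8. Hsd3b1 led in MP tumor 4 and in the library labelled MP tumor 10, where it made up 68.9% and 70.7% of the members' summed TPM.

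**Figure D3:**
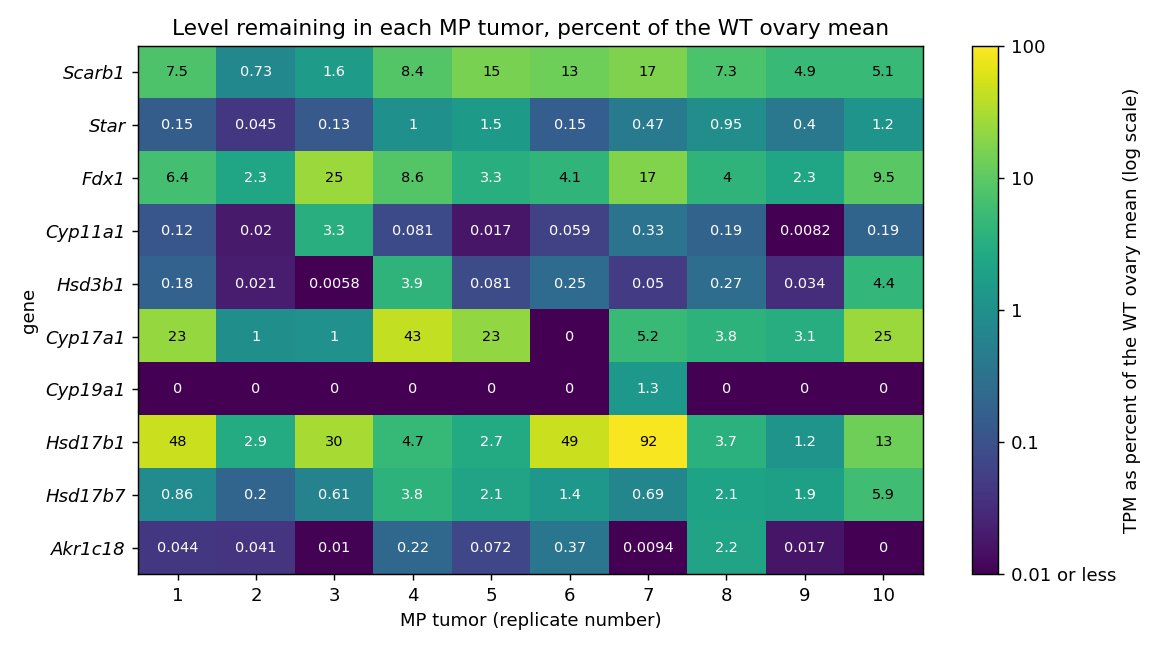
The TPM of each member (rows) in each MP tumor (columns) as a percent of the WT ovary mean, printed in each cell and colored on a log scale. Star, Cyp11a1, Hsd3b1 and Akr1c18 are mostly under 1%, and Hsd17b1 reaches 92% in MP tumor 7.

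To ask whether members fell by unequal amounts, the log2 ratio of every pair was compared between groups (2-sided exact permutation test over libraries, adjusted over 45 pairs). Such a ratio within a library does not change with the scaling of the library, apart from the pseudocount. Of the 45 pairs, 24 differed. Leaving out pairs with Cyp19a1, whose fall the pseudocount limits, 20 of 36 differed. These were all 20 pairs of Star, Cyp11a1, Hsd3b1 or Akr1c18 with Scarb1, Fdx1, Cyp17a1, Hsd17b1 or Hsd17b7, at differences of 2.37 to 6.47 on the log2 scale, and in each the former fell more (exact permutation adjusted p between 0.0143 and 0.0393). This division into 4 and 5 was drawn after the values were seen. The remaining 4 set the same genes against Cyp19a1, and no order is read from them. With a pseudocount of 0.1, 14 of the 36 and 17 of all 45 differed, and 17 to 25 did with any 1 tumor left out.

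Enzyme and electron carrier were not equally reduced. The log2 ratio of Cyp11a1 to Fdx1 averaged 2.59 ± 0.08 (SD, n = 3) over the WT ovaries but -2.99 ± 1.17 (SD, n = 10) over the tumors. They differed by -5.58 (exact permutation p = 0.0035, the smallest this design can give, adjusted p = 0.0143) with no overlap, which 13 of the 45 pairs showed. Without any 1 library it lay between -5.46 and -5.88. Star to Scarb1, import against uptake, differed by -3.80 (adjusted p = 0.0143, exact permutation test).

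No difference was detected for Cyp11a1 against Akr1c18 (-0.09, exact permutation adjusted p = 0.987), which ran from -0.77 to 0.53 as single libraries were left out. For Hsd17b1 against Hsd17b7 the difference was 2.24 (exact permutation adjusted p = 0.346) and ran from 1.47 to 3.08. The 3 ovaries limit all of these pairs. With WT ovary 2 or WT ovary 3 left out, or within the WT ovaries' library code, 0 of 45 pairs passed, and 15 passed without WT ovary 1, at smallest possible p values of 0.0152 for 2 ovaries and 0.1 for 3 against 3.

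Across the 10 MP tumors, 45 relations between members were computed on log2(TPM + 1), and this was chosen after the data were seen. Cyp11a1 and Fdx1 varied together (Spearman rho 0.903, permutation p = 0.00078, adjusted p = 0.0263; Pearson r 0.897, permutation p = 0.00023, adjusted p = 0.0103). Without MP tumors 3 and 9, the farthest from the median of Cyp11a1, r was 0.811. By likeness, Fdx1 ranked 9 of 15038 genes for Cyp11a1, and Hsd17b7 ranked 175 for Star. Star and Hsd17b7 had a rho of 0.891 (permutation p = 0.00117, adjusted p = 0.0263) and an r of 0.841 (permutation p = 0.00229, adjusted p = 0.0515), or 0.810 without MP tumors 2 and 5. Under median-of-ratios scaling the rho values were 0.842 (permutation test, adjusted p = 0.0900) and 0.697 (permutation test, adjusted p = 0.260), and neither relation passed. With values centred on library code and permuted within codes, rho was 0.949 for Cyp11a1 and Fdx1 (exact permutation p = 0.00116, the smallest possible, adjusted p = 0.0521) and 0.749 for Star and Hsd17b7 (exact permutation p = 0.0312, adjusted p = 0.312), and neither passed. Over 45 relations the smallest possible p cannot bring a single relation under the threshold, so nothing is read from this for Cyp11a1 and Fdx1.

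**Figure D4:**
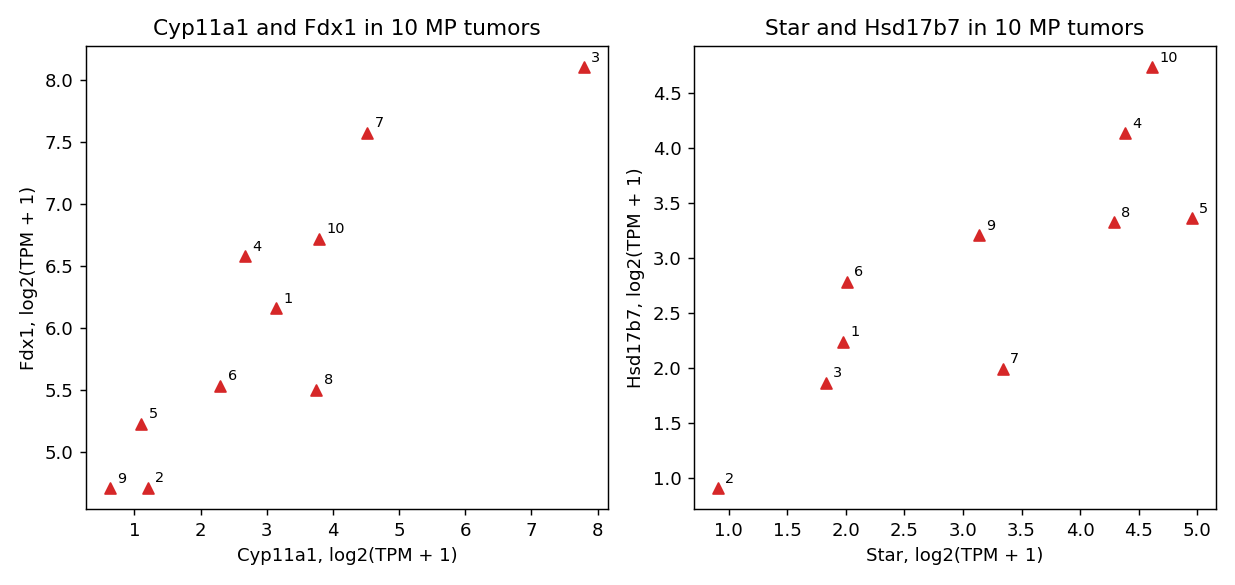
Each triangle is 1 MP tumor, labelled by replicate number, at its log2(TPM + 1) of Cyp11a1 and Fdx1 (left) and of Star and Hsd17b7 (right). MP tumor 3 is highest and MP tumor 9 lowest for both genes on the left.

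The genes around the members were read from 3 lists, of which 25 genes fell in all, or 11 to 13 with any 1 WT ovary left out, 16 with median-of-ratios scaling and 16 with a pseudocount of 0.1. Over all genes tested 14.3% were lower and 2.51% higher. By limma 0 of them rose, and 0 were higher at an unadjusted p under 0.05. Of 37 other steroid enzymes and cofactors listed, 25 were tested, 9 fell and 0 rose, with a median log2 fold change of -1.32. Cyb5a, the cytochrome that aids Cyp17a1, fell by 2.76 (limma adjusted p = 0.000824), and Akr1c14 fell by 2.24 (limma adjusted p = 0.0369). The largest falls were of Hsd11b2, which inactivates glucocorticoids (-5.27, limma adjusted p = 9.99e-05), Cyp1b1, which hydroxylates estrogens (-4.99, limma adjusted p = 0.00261), and Srd5a2, a 5-alpha reductase (-3.24, limma adjusted p = 0.0236). Hsd17b10, a mitochondrial enzyme with many substrates, averaged 355 TPM in WT ovaries and 413 TPM in tumors (0.14, limma adjusted p = 0.784), and Cyb5b was at -0.91 on the log2 scale (limma adjusted p = 0.248).

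Of 17 genes that supply or store cholesterol, 8 fell and 0 rose, with a median of -1.48. Apoa1, the main protein of high-density lipoprotein, fell by 5.47 (limma adjusted p = 3.02e-07), from 56.4 to 85.7 TPM in WT ovaries to at most 1.85 TPM in tumors. Lrp8, a lipoprotein receptor, fell as well (-2.97, limma adjusted p = 0.0278), as did Abca1, a cholesterol exporter (-2.86, limma adjusted p = 0.0469), Soat1, which esterifies cholesterol for storage (-2.79, limma adjusted p = 0.0159), and Npc2, a lysosomal cholesterol carrier (-1.48, limma adjusted p = 0.00549). The mitochondrial proteins Vdac1 (0.33, limma adjusted p = 0.548) and Tspo (-0.48, limma adjusted p = 0.512) did not pass the test, nor did Apoe (-1.64, limma adjusted p = 0.0832).

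Of 21 receptors and regulators listed, 20 were tested, 8 fell and 0 rose, with a median of -2.25. Lhcgr, the receptor for luteinizing hormone, stood at 689, 865 and 244 TPM in WT ovaries and at 0 in 5 tumors, and its highest tumor was the library labelled MP tumor 10 at 5.79 TPM. It fell by 8.60 (SE 0.58, limma adjusted p = 6.90e-08). Prlr, the prolactin receptor, fell by 7.08 (limma adjusted p = 1.30e-07).

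The nuclear receptors Nr5a1 and Nr5a2, which bind like DNA sites at steroid enzyme genes, stood at different levels in the tumors. Nr5a2 stood at 360, 351 and 202 TPM in WT ovaries and at most at 2.49 TPM in 9 tumors, with 85.7 TPM in MP tumor 7, and fell by 6.81 (SE 1.01, limma adjusted p = 0.000255). Nr5a1 stood at 213, 287 and 231 TPM in WT ovaries and ran from 1.36 TPM in MP tumor 2 to 518 TPM in the library labelled MP tumor 10 (median 61.0), with a log2 fold change of -2.28 (SE 1.16, limma adjusted p = 0.179). The difference between the changes of these genes was not tested. Mrap, an accessory protein of the corticotropin receptor, fell by 3.64 (limma adjusted p = 0.0419), and Prkar1a, a subunit of protein kinase A, had a value of -1.26 (limma adjusted p = 0.0626).

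Some other regulators were picked after their values were seen. Fshr, the receptor for follicle-stimulating hormone, had reads in 1 of 10 tumors, at 1.52 TPM, and fell by 5.16 (limma adjusted p = 2.04e-07). Gata4, a transcription factor of ovarian somatic cells, ran from 4.01 to 344 TPM in tumors against 200 to 235 TPM in WT ovaries (-2.21, limma adjusted p = 0.170). Gata6 gave a like value (-2.66, limma adjusted p = 0.143), while Foxl2, a granulosa cell factor, fell (-3.58, limma adjusted p = 0.0202), and so did Runx2 (-4.90, limma adjusted p = 0.000122).

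**Figure D5:**
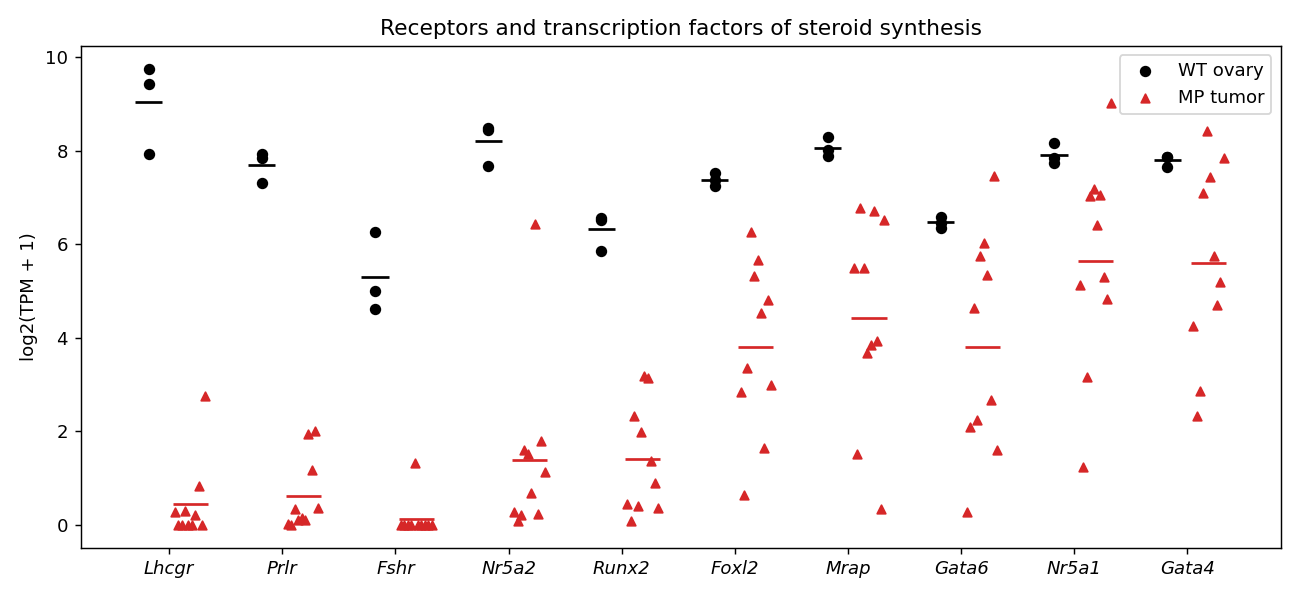
Receptors and transcription factors as log2(TPM + 1), with black circles for WT ovaries, red triangles for MP tumors 1 to 10 from left to right and bars at the group means. Lhcgr, Prlr and Fshr lie near 0 in nearly all tumors, while Nr5a1, Gata4 and Gata6 reach or pass the WT level in at least 1 tumor.

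Markers of the cells that make steroids were lower as well. Without the members, the summed TPM of 10 granulosa cell markers was 4293 to 8146 in WT ovaries and 157 to 2654 in tumors, with MP tumor 4 highest. Kctd14, which did not pass the test (0.28, limma adjusted p = 0.795), made up 13.6% to 95.8% of that sum in the tumors, and without it the sum was 4065 to 7906 in WT ovaries and 7.69 to 1546 in tumors. The sum of 7 theca cell markers was 344 to 1062 in WT ovaries and 6.69 to 76.7 in tumors, and that of 6 luteal markers was 2696 to 4339 and 8.44 to 107. In each case all 10 tumors stood below every ovary, and so did the sums for egg cells, smooth muscle and endothelium. Lhcgr, which is in the theca and luteal lists alike, held 689, 865 and 244 TPM of the theca sums in WT ovaries 1 to 3 (868, 1062 and 344). Of the other theca markers in the sum, Gli1, Hhip and Hpgd fell. Fgf7 (-0.08, limma adjusted p = 0.953) and Ptch1 (-2.01, limma adjusted p = 0.0630) did not pass the test. Of the whole lists, 10 of 12 granulosa, 4 of 7 tested theca and 7 of 8 luteal markers fell, although these counts hold several members. The 5 adrenal cortex markers summed to 237 to 327 in WT ovaries and 1.84 to 108 in tumors, nearly all of it Mrap except in MP tumor 9, where Mc2r held 1.93 of 2.18 TPM. Of the other adrenal markers, Cyp11b1 and Cyp11b2 were listed at 0 in all tumors, Cyp21a1 had reads in 2 tumors (at most 0.268 TPM) and Mc2r in 4 (at most 1.93 TPM). In WT ovary 3, Cyp11b1 stood at 12.4 TPM.

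For the remaining lists some tumors stood within or above the WT range. The epithelial sum was 289 to 320 in WT ovaries and 8.28 to 1201 in tumors, 7 tumors stood below every ovary, and 4 of 8 tested markers fell. The fibroblast sum reached 4632 in MP tumor 9, the tumor with the least Cyp11a1 and Hsd17b1, against 1323 to 2304 in WT ovaries, 8 tumors stood below every ovary, and 2 of 6 markers fell (median log2 fold change -3.23). Leukocyte markers summed to 1011 to 3192 in WT ovaries and 488 to 3666 in tumors, and by limma 0 of 7 tested fell, against 3 at an unadjusted p under 0.05. Skeletal muscle markers summed to 7.72 to 9.52 in WT ovaries and were above that range in 8 tumors, with a median of 80.4 and the highest sum, 1756, in MP tumor 1. Of 4 tested, 1 rose (Ckm, 4.85, limma adjusted p = 0.0235). The part of each cell type in the falls of the members was not tested.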

How the data were processed

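RNA-seq of 3 WT ovaries and 10 MP tumors was analysed. The authors deposited 1 table of TPM values per gene and library, summing to 1000000 in each library, with replicates not pooled. The labels' processing notes list FastQC 0.11.5, Trimmomatic 0.36, STAR 2.5.3a, featureCounts 1.6.3 and the builds mm10 and GRCm38, whereas the protocol names a human build, HTSeq and RPKM. The table holds mouse genes, of which 96.0% have the start and end of GENCODE M21 of GRCm38, so coordinates are on GRCm38. TPM depends on all other genes in a library. Multiplied by gene length, the values of a library were whole multiples of its smallest step (tolerance 0.01 read), from which reads were worked back. Per kb of gene length, 1 read equalled 0.0513 to 0.109 TPM in WT ovaries and 0.114 to 0.790 TPM in MP tumors. 0 sample columns were left unused.

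Genes reaching 1 TPM in 3 or more of the libraries entered the test, on log2(TPM + 1), with limma 3.58.1 (trended, robust) in R 4.3.3, all 10 tumors against 3 ovaries, with Benjamini-Hochberg adjustment and a threshold of 0.05. Fold changes on this scale understate the change of low genes. Pairs of members were compared by 2-sided exact permutation tests and correlations by 100000 permutations (scipy 1.17.1). On simulated data with 200 of 17277 genes changed 4-fold, limma recovered 194, 0 with the wrong sign, and made 8 false calls. The rate of missed and false calls in the 13 libraries themselves was not tested. There the larger changes of Cyp17a1 (-3.14, limma adjusted p = 0.0924) and Hsd17b1 (-3.16, limma adjusted p = 0.0609) did not pass, while 8 members did. The study's methods call its samples biological replicates unless stated otherwise, and the labels do not name the animals.

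The members and lists were chosen with earlier results of these data known. All members are named, with the 5 most abundant genes in WT ovary and the 3 largest changes past the threshold of each of 3 lists (other steroid enzymes, cholesterol supply, receptors and regulators), and the 5 genes most like the members across tumors. Alternatives varied the pseudocount, the filter, the scaling, the limma options, voom on the reads worked back, the library code, the replicate block and single libraries. Relations between members, their rescaling and their centring on library code were added after the data were seen. Promoter sequences are from RefSeq.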

Additional observations from a re-analysis of the deposited data

Results flagged for a closer look

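Dixon's test on TPM marked 1 tumor for each of 4 of the 10 members. Chance marks about 1 in 20 groups of normally distributed values, a rate that need not hold for skewed TPM. Cyp11a1 reached 221 TPM in MP tumor 3. Hsd17b1 reached 416 TPM in MP tumor 7, where 220 TPM came next. Cyp19a1 was marked for 0.183 TPM in MP tumor 7, but this rests on 2 reads against no read in the other 9 tumors, and is within what a count of 0 allows in several of them (0.0757 to 0.524 TPM). Akr1c18 reached 79.6 TPM in MP tumor 8.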

How the results depend on the processing

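Over 24 alternatives for each of 10 members, or 240 values, 0 changed direction and 0 lost a call, and 6 gained one (2 for Cyp17a1 and 4 for Hsd17b1, with voom among them). The number of members that fell was 8 in the report and 8 to 10 under all alternatives. It was 8 to 9 when single libraries were left out.

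Counts over more genes moved further. Genes lower, 2463 in the report, came to 4042 with voom, 9902 with the WT ovaries' library code alone and 8534 with the code as covariate, and to 1158 to 3264 without single libraries, lowest without a WT ovary. Genes higher, 433 in the report, came to 1291 with median-of-ratios scaling, 1904 with quantile normalization, 1879 with voom, 1112 with the WT ovaries' library code alone and 894 with the covariate, and to 94 to 635 without single libraries. The median of all genes was -0.58 in the report, -0.02 with median-of-ratios scaling and -1.19 within the WT ovaries' code. That of the members was -4.71, -4.03 and -5.98 in the same order, and -6.27 with a pseudocount of 0.1. The 25 listed pathway genes lower became 16 with a pseudocount of 0.1 and 16 with median-of-ratios scaling, 48 with the WT ovaries' library code alone and 45 with the covariate, and 11 to 29 without single libraries (0 were higher throughout). Pairs that differed, 24 in the report, came to 0 with the WT ovaries' library code alone and 0 to 25 without single libraries. Fewer libraries leave the pair test fewer splits, and the cause of the other changes was not tested.

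Replicate numbers 1 to 3 occur in both groups, but the deviations of same-numbered libraries did not correlate (r = -0.10, -0.02 and 0.00), so the libraries share only a number. With the replicate block 9 members were lower, 9838 of all genes were lower and 1095 higher, and 46 listed pathway genes were lower. No WT ovary correlated best with the tumor of its own number. Cyp17a1 passed under the block (-3.80, limma adjusted p = 0.0473) but not with the code as covariate, and Hsd17b1 did not (-2.55, limma adjusted p = 0.0789).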

Other observations

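Of the 36 other steroid enzymes in the table, 4 were at least 5 times higher in 1 tumor than in the highest WT ovary and at 20 TPM or more, which was looked for after the data were seen. Akr1b7, an aldose reductase-like enzyme, stood at 80.7 TPM in MP tumor 1 and 67.0 TPM in MP tumor 7 against 1.86 to 2.42 TPM in WT ovaries. Cyp7b1, an oxysterol hydroxylase, stood at 88.8 TPM in MP tumor 9 and 46.0 TPM in MP tumor 5 against 6.26 to 7.91 TPM. Hsd17b3, which makes testosterone in the testis, stood at 30.7 TPM in MP tumor 5 against 1.16 to 2.91 TPM, and Hsd17b13 at 22.1 TPM in the library labelled MP tumor 10 against 0.381 to 0.531 TPM. As groups, Akr1b7, Cyp7b1 and Hsd17b3 did not pass the test (limma adjusted p = 0.726, 0.981 and 0.850), and Hsd17b13 was below the filter on low values.

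The 5 genes most like the mean log2(TPM + 1) of the 10 members over the 10 tumors, of 15030 ranked, were Nat9 (Spearman rho 0.927), Tob1 (0.915), Tmem222, Nfs1 and Acad8 (0.903 each). The genes Ust, Ero1lb and Nmnat3 had the same rho of 0.903 and were placed after these by Pearson r. The tumors share their depth and scaling in each of these values.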
